A study of Mus musculus with 9 samples.

Results

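Oxidative phosphorylation genes were followed in mouse ear epidermis as 1 module that is encoded by 2 genomes. Members were the genes whose symbols begin with mt-Nd, mt-Co, mt-Atp, mt-Cytb, Nduf, Uqcr, Cox4 to Cox8 or Atp5, together with Sdha, Sdhb, Sdhc and Sdhd. Of the 113 symbols that match, 7 that carry "-ps", a mark of pseudogenes, were left out, which gave 106 members among the 52550 genes of the count table. Of these, 13 are encoded by the mitochondrial DNA and 93 by the nucleus. The nuclear-encoded members are 75 subunits (37 of complex I, 4 of complex II, 8 of complex III, 11 of complex IV and 15 of complex V), 10 assembly factors and 8 isoforms that are restricted to particular tissues. Cox7b2 and Cox8c had no count in any library.

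TruSeq RNA libraries, 9 in all and 3 per group, were made from total RNA of epidermal sheets. The mice were wild-type males aged 8 weeks (C57BL/6 in the labels and C57BL/6J in the methods). The VAS + H2O group received Vaseline on the skin and ddH2O by gavage, the IMQ + H2O group was given ddH2O and topical imiquimod, which activates Toll-like receptor 7 and gives psoriasis-like inflammation, and the IMQ + XYF group was given topical imiquimod with XYF (Xiao-Yin-Fang, a herbal decoction) at 23.3 mg/g. Vaseline or imiquimod was applied for 5 days and gavage lasted 10 days in every group. The methods name 2 mice as the source of ear sheets without stating whether this is per library, and they give 3 samples per group without tying each to its own animals, so the p-values measure only the spread between these libraries, which may be technical.

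The complexes I to IV of the inner mitochondrial membrane pass electrons from NADH and succinate to oxygen and, apart from complex II, pump protons, and complex V uses the proton gradient to make ATP. All mitochondrial-encoded members are transcribed from a small circular genome that also carries the rRNAs and tRNAs of the mitochondrial ribosome. Nuclear-encoded subunits are made in the cytosol and imported, so each complex except complex II is assembled from products of both genomes. In skin, basal keratinocytes divide and then differentiate into a layer that loses its organelles.

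Libraries held 30298275 to 64771160 counts on genes. Levels are given in CPM, counts scaled to a common library size after TMM normalization, and 3 counts, taken as the floor, were worth 0.0463 to 0.0990 CPM, which covers counting error only. Keratinocyte markers, 8 genes, summed to 37771 to 48637 CPM in VAS + H2O, while IMQ + H2O had 50158 to 62135 and IMQ + XYF had 50840 to 56389, above VAS + H2O without overlap. Leukocyte markers summed to at most 322 CPM in VAS + H2O, while IMQ + H2O had 343 to 1291 and IMQ + XYF had 471 to 657. The epidermal sheets also held other tissues in unequal amounts. The summed level of 7 cartilage markers was 189 to 446 CPM in VAS + H2O, 37.0 to 80.7 in IMQ + H2O, with 136 to 195 in IMQ + XYF, with Matn1 at 0 in all 9 libraries. That of 8 skeletal muscle markers was 170 CPM in VAS + H2O replicate 2 and 5.18 to 52.0 in the other libraries, and that of 6 dermal fibroblast markers was 623 CPM in the same replicate and 44.6 to 201 elsewhere. VAS + H2O replicate 2 therefore stood apart, and the counts of members and lists in IMQ + H2O against VAS + H2O are also given without it. In bulk RNA, fewer cells of a type and less RNA per cell cannot be told apart.

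The question of the first comparison was what imiquimod does to the epidermis. Nuclear-encoded members were higher in IMQ + H2O than in VAS + H2O, while mitochondrial-encoded members were not. Of 88 nuclear-encoded members tested, 41 were higher and 2 were lower at an adjusted p of at most 0.05, and 45 did not pass (edgeR quasi-likelihood test, Benjamini-Hochberg adjustment over all genes tested). Over all 18009 genes tested, 12.7% were higher and 9.41% were lower. The median log2 fold change was 0.39 over the 88 nuclear-encoded members against -0.03 over all genes tested. These are small differences: among the 41 the log2 fold changes ran from 0.32 to 1.16, and with the further threshold of 1 on the log2 scale 1 member passed, against 7.68% of all genes in either direction. The count of 41 fell to 10 without VAS + H2O replicate 2, to 20 without VAS + H2O replicate 1, and to 22 without IMQ + H2O replicate 1 or replicate 3, while the median stayed between 0.33 and 0.50 in all fits that left out 1 library. Such fits have fewer libraries, and the share of all genes tested that passed in them was not computed, here or for the complexes and lists below. Whether the fall in these counts is particular to the members is therefore not known. The count of 2 that were lower became 1 without any library other than IMQ + H2O replicate 2. Without IMQ + H2O replicate 2 it was 2, but not the same 2 genes, since Atp5sl, 1 of the 2, passed in no fit that left out 1 library. Cartilage markers were lower in IMQ + H2O (6 of 6 tested, median log2 fold change -3.15), as was 1 of 6 dermal fibroblast markers (median -2.48). Of 8 keratinocyte markers, 3 were higher (median 0.29). Of 7 leukocyte marker genes, 1 was higher and 1 lower, with a median of -0.03. Among these 7, 3 log2 fold changes were above 0, the highest at 8.09, and 4 were below. In IMQ + XYF against VAS + H2O the leukocyte median was -0.18, again with 4 below 0. The summed leukocyte level thus rose in both imiquimod groups while most of its genes did not. Summed keratinocyte markers moved up with the nuclear-encoded members in both imiquimod groups, but not every gene did. In each group 6 of the 8 had log2 fold changes above 0 and 2 below, the lowest at -0.88 in IMQ + H2O and -0.60 in IMQ + XYF. In IMQ + XYF against VAS + H2O 3 of the 8 were higher and 1 was lower. The part of any of these cell types in the members' differences was not tested.

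**Figure D1:**
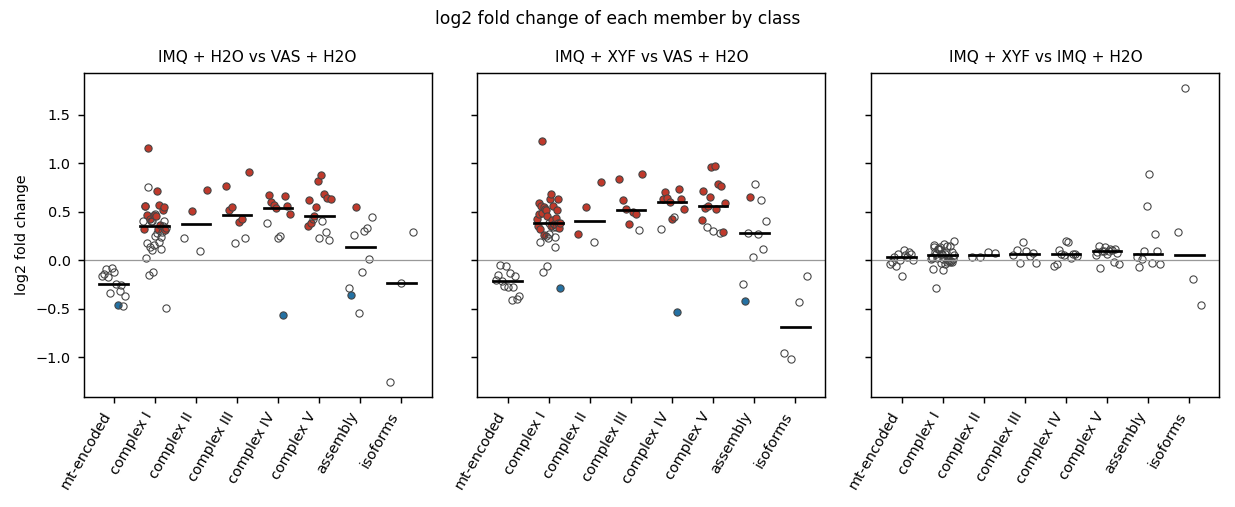
Each circle is 1 member, placed by its log2 fold change (vertical axis) in its class (horizontal axis) for 3 comparisons; red circles were higher and blue circles lower at an adjusted p of at most 0.05, open circles did not pass, and black bars are class medians. In IMQ + H2O against VAS + H2O the medians of the 5 nuclear-encoded complexes lie between 0.36 and 0.54 and that of the 13 mitochondrial-encoded members at -0.24, and in IMQ + XYF against IMQ + H2O no circle is filled.

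By complex, 15 of 37 nuclear-encoded complex I subunits were higher in IMQ + H2O and 0 were lower, with a median log2 fold change of 0.36. At an unadjusted p under 0.05 (edgeR) there were 26 of the 37, against 6823 of all 18009 genes tested in this comparison. The numbers were 2 of 4 for complex II (median 0.37), 6 of 8 for complex III (median 0.47), 7 of 11 for complex IV (median 0.54) and 10 of 15 for complex V (median 0.46). The only nuclear-encoded subunit that was lower was Cox7a2l, counted here in complex IV by its name. Without VAS + H2O replicate 2 the counts of higher subunits were 1 in complex I, 1 in complex II, 1 in complex III, 2 in complex IV and 5 in complex V, and without VAS + H2O replicate 1 they were 7, 2, 3, 3 and 5. Without IMQ + H2O replicate 1, or without replicate 3, they were 6, 2, 4, 3 and 7. Shares over all genes tested in these smaller fits were not computed. Ndufa4, Sdhd, Uqcrq, Cox7b, Atp5g3, Atp5g1, Atp5b, Atp5o and Atp5f1 passed in every fit that left out 1 library. Whether the complexes differ from each other was not tested.

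Ndufa4, which the naming places in complex I and which is also known as a subunit of complex IV, had the largest difference among the members that passed. Its level was 61.3, 44.9 and 51.4 CPM in replicates 1, 2 and 3 of VAS + H2O, the order used throughout, 117, 106 and 131 in IMQ + H2O and 126, 120 and 124 in IMQ + XYF. Every imiquimod library was above every Vaseline library. The log2 fold change was 1.16 ± 0.13 (SE) in IMQ + H2O (adjusted p = 0.00636, edgeR) and 1.23 ± 0.12 in IMQ + XYF (adjusted p = 0.00111, edgeR), both against VAS + H2O. Ndufa4 lies on chromosome 6 and was the 1 member that passed with a log2 fold change above 1 in each of these comparisons.

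Complex II is the only complex with no mitochondrial-encoded part. Sdhd, a membrane anchor of succinate dehydrogenase, had 45.9, 40.1 and 45.2 CPM in VAS + H2O, 69.0, 66.3 and 82.8 in IMQ + H2O, with 76.2, 75.4 and 77.9 in IMQ + XYF, with no overlap between VAS + H2O and the other groups. Its log2 fold change in IMQ + H2O was 0.72 ± 0.11 (adjusted p = 0.0101, edgeR). Sdhb, the iron-sulfur subunit, was higher by 0.51 ± 0.09 (adjusted p = 0.0146, edgeR), a call that was lost without VAS + H2O replicate 2, while Sdha and Sdhc did not pass, with log2 fold changes of 0.23 and 0.10.

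In complex III, Uqcrq, a small subunit next to cytochrome b, rose from 42.0, 46.2 and 45.1 CPM in VAS + H2O to 98.8, 65.2 and 89.4 in IMQ + H2O, a log2 fold change of 0.91 ± 0.16 (adjusted p = 0.0128, edgeR). Uqcr10, another small subunit, had 45.5, 39.2 and 45.4 CPM in VAS + H2O and 75.5, 61.6 and 86.8 in IMQ + H2O, a log2 fold change of 0.77 ± 0.14 (adjusted p = 0.0141, edgeR). IMQ + H2O replicate 2 was the lowest of its group for both genes and remained above every VAS + H2O library. Without VAS + H2O replicate 2 Uqcr10 no longer passed. Uqcrc1, a core subunit, had a log2 fold change of 0.18 and did not pass.

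Complex V held 5 of the 6 nuclear-encoded members, isoform partners aside, that had the smallest adjusted p among those that rose. Atp5g3 encodes a subunit c of the rotating ring, as do Atp5g1 and Atp5g2. Atp5g3 had 88.9, 86.1 and 85.6 CPM in VAS + H2O, 163, 133 and 187 in IMQ + H2O, with 170, 165 and 176 in IMQ + XYF. The spread in VAS + H2O was small beside the difference of 0.88 ± 0.13 on the log2 scale (adjusted p = 0.00942, edgeR). Atp5g1 had 41.0, 35.8 and 43.5 CPM in VAS + H2O and 69.7, 60.9 and 83.2 in IMQ + H2O, a log2 fold change of 0.82 ± 0.13 (adjusted p = 0.0119, edgeR). The third gene of the ring, Atp5g2, overlapped between the groups and did not pass, with a log2 fold change of 0.23 ± 0.11. Atp5b, the catalytic beta subunit, had 567, 495 and 569 CPM in VAS + H2O and 849, 769 and 906 in IMQ + H2O, a log2 fold change of 0.62 ± 0.10 (adjusted p = 0.0113, edgeR). Atp5o and Atp5f1, both of the peripheral stalk, were higher by 0.63 ± 0.10 and 0.55 ± 0.09 (adjusted p = 0.0108 and 0.0110, edgeR).

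In complex IV, 7 of the 11 ubiquitous subunits rose, 1 fell and 3 did not pass. Cox7b had 66.4, 63.7 and 67.4 CPM in VAS + H2O and 103, 91.6 and 121 in IMQ + H2O, a log2 fold change of 0.66 ± 0.11 (adjusted p = 0.0122, edgeR). Cox6a1, Cox6b1 and Cox8a were higher by 0.57, 0.54 and 0.48 (adjusted p = 0.0300, 0.0166 and 0.0210, edgeR), and none of these 3 passed without VAS + H2O replicate 2. Cox6a1 and Cox6b1 also did not pass without VAS + H2O replicate 1, nor Cox6a1 and Cox8a without IMQ + H2O replicate 1 or 3. Cox4i1, an early-assembling subunit, ranged from 113 to 189 CPM in VAS + H2O and from 122 to 229 in IMQ + H2O, so its groups overlapped and its log2 fold change of 0.38 ± 0.29 did not pass, and neither did that of Cox7a2, 0.25 ± 0.16.

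Cox7a2l, counted here among the ubiquitous subunits of complex IV, went the other way. It had 172, 155 and 165 CPM in VAS + H2O, 111, 124 and 101 in IMQ + H2O, with 118, 115 and 107 in IMQ + XYF. All imiquimod libraries were below all Vaseline libraries, and its level fell by 0.56 on the log2 scale in IMQ + H2O (SE 0.09, adjusted p = 0.0122, edgeR) and by 0.53 in IMQ + XYF (adjusted p = 0.00285). Atp5sl, an assembly factor despite its symbol, had 20.8, 19.9 and 19.1 CPM in VAS + H2O, 16.0, 14.9 and 16.2 in IMQ + H2O, with 14.5, 15.0 and 15.1 in IMQ + XYF. It fell by 0.36 in IMQ + H2O (adjusted p = 0.0435, edgeR), and by 0.42 in IMQ + XYF (adjusted p = 0.0121). The first of these calls was lost when any 1 library was left out, and the second without IMQ + XYF replicate 1. Ndufv3, an accessory subunit of the NADH-binding arm of complex I, had 106, 95.7 and 110 CPM in VAS + H2O, 57.3, 89.5 and 75.7 in IMQ + H2O, with 85.9, 86.0 and 82.9 in IMQ + XYF. Its groups did not overlap in either comparison, and it passed in IMQ + XYF, where it fell by 0.29 (adjusted p = 0.0236, edgeR), and did not pass in IMQ + H2O (log2 fold change -0.50, adjusted p = 0.0663). The call in IMQ + XYF held without VAS + H2O replicate 2 and was lost without any other library.

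**Figure D2:**
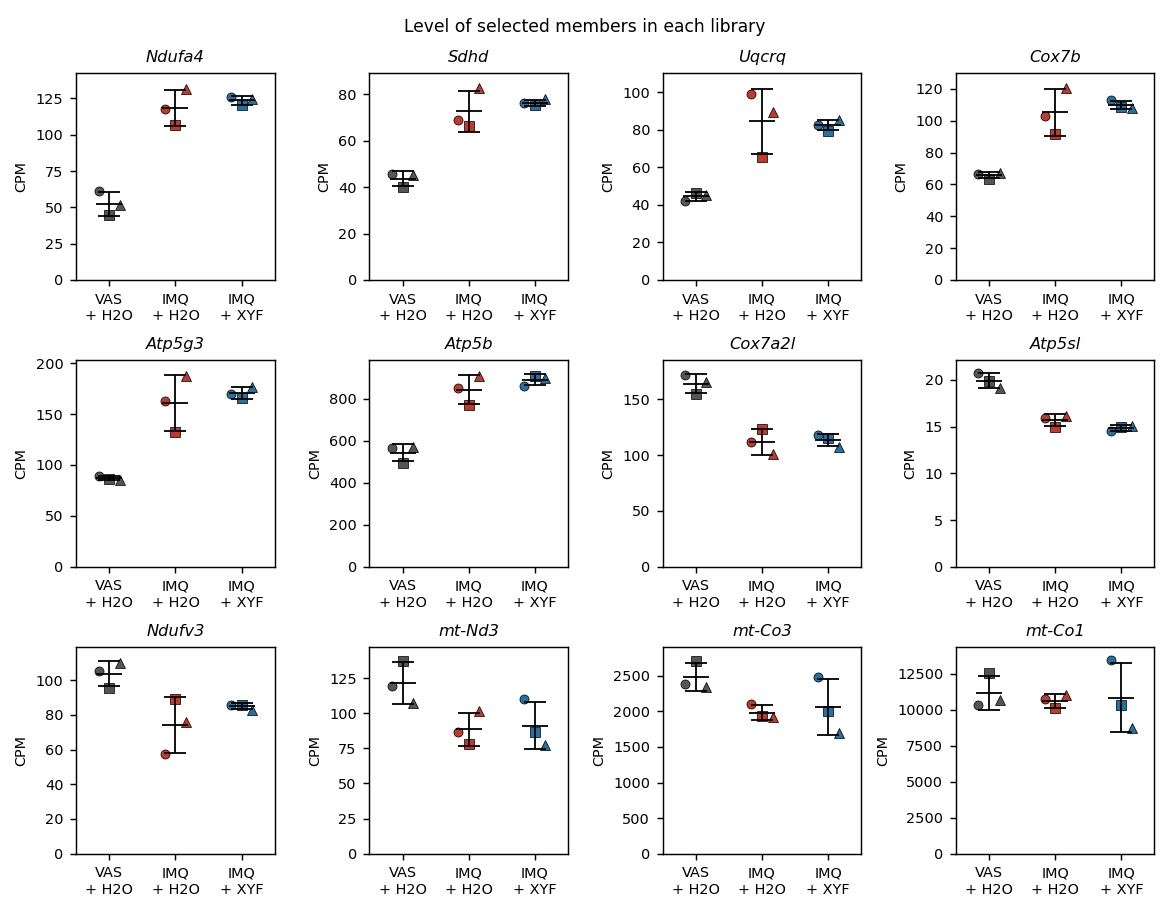
Level in CPM (vertical axis, from 0) of 12 members in the 9 libraries, with circles, squares and triangles for replicates 1, 2 and 3 and bars for the mean and SD of 3 libraries. Ndufa4, Sdhd, Uqcrq, Cox7b, Atp5g3 and Atp5b are higher in both imiquimod groups than in VAS + H2O without overlap, Cox7a2l, Atp5sl and Ndufv3 are lower without overlap, and mt-Co1 overlaps in all groups.

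The 10 assembly factors among the members, which help to build complexes without remaining in them, had 2 calls among them. These were 1 higher and 1 lower, or 10% each, near the 12.7% and 9.41% of all genes tested. Ndufaf2 was higher in IMQ + H2O, with 11.1, 9.04 and 9.55 CPM in VAS + H2O and 13.7, 13.9 and 16.2 in IMQ + H2O (log2 fold change 0.55 ± 0.14, adjusted p = 0.0330, edgeR), Atp5sl was lower, and the other 8 did not pass. Both calls were lost when any 1 library was left out. Their median log2 fold change was 0.14, against 0.41 over the 75 subunits. Of 37 further assembly factors outside the naming pattern, 2 were higher and 2 were lower (median 0.18), or 5.41% each, below the shares over all genes tested. Those that passed with the smallest adjusted p were Cox10, a heme synthesis enzyme for complex IV (0.79 ± 0.12, adjusted p = 0.00958, edgeR), Ttc19, a complex III factor (-0.40 ± 0.10, adjusted p = 0.0361) and Uqcc2, also of complex III (0.64 ± 0.17, adjusted p = 0.0376). Without VAS + H2O replicate 2, 1 of the 37 was higher and 0 were lower, and Ttc19 no longer passed whichever library was left out. The difference between assembly factors and subunits was itself not tested.

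Promoters of the nuclear-encoded members were read from RefSeq on GRCm38.p6, from 250 bases before to 50 after the transcription start. A promoter was found for 77 of the 93, with 83 starts in all. They were searched on both strands for motifs of 3 factors that are textbook regulators of respiratory genes: NRF1 (GCGCANGCG), the ETS family with GABPA (CCGGAAG) and YY1 (AAGATGGC). Of the 83 promoters, 27.7% held the NRF1 motif, 21.7% the ETS motif and 15.7% the YY1 motif, against 6.25%, 8.86% and 2.75% of all 32851 promoters in the table. At least 1 motif was in 54.2% of the members' promoters and 16.0% of all promoters. Among promoters of the members that rose in IMQ + H2O the share was 54.1% of 37, and among those of members that were tested and did not pass it was 57.5% of 40. In the same order the shares were 27.0% and 32.5% for NRF1, 32.4% and 15.0% for ETS, and 10.8% and 17.5% for YY1. These differences were not tested. The base composition of the promoters was not matched, and a match is a description of letters, not a site. Of the members that passed, stretches before the start that overlap no annotated exon are printed for 3 that rose and hold a motif, to show the match in its context, and for Cox7a2l, which was lower and holds none there, 5′ to 3′ on the strand of the gene, with motif matches on either strand in capitals. The Cox7a2l stretch lies before the RefSeq start but inside the gene as annotated in GENCODE M21 (83501918 to 83517330). Stretches of most other members that rose, Ndufa4 and Atp5b among them, hold no motif either.
Sdhd, chr9:50603850-50603909, minus strand, ETS: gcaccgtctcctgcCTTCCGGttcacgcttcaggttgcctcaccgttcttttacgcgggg
Uqcr11, chr10:80406831-80406950, minus strand, ETS: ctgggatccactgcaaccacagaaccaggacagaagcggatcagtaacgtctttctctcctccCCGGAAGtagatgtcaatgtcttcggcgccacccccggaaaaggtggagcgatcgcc
Cox6a1, chr5:115348982-115349101, minus strand, NRF1: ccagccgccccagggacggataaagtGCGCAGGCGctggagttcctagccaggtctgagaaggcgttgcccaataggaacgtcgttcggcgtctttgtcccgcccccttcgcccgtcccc
Cox7a2l, chr17:83514334-83514453, minus strand, no match: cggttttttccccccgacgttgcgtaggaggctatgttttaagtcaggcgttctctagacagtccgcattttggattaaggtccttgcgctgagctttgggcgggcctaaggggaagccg

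The 13 mitochondrial-encoded members are 7 subunits of complex I, 1 of complex III, 3 of complex IV and 2 of complex V. They took 3.21% to 4.09% of all counts in VAS + H2O, 2.81% to 3.19% in IMQ + H2O, with 2.55% to 3.64% in IMQ + XYF. Per kilobase of transcript they stood far above the nuclear-encoded subunits: in VAS + H2O their mean levels ran from 349 to 7234 CPM per kb, with a median of 2992, while the 75 nuclear-encoded subunits ran from 4.49 to 284 with a median of 59.6. In VAS + H2O the ranges did not overlap. In the imiquimod groups they did, since mt-Nd3 stood at 255 in IMQ + H2O and 262 in IMQ + XYF while Atp5b stood at 439 and 464. By level in VAS + H2O the order was led by mt-Co1, the catalytic core of complex IV, with 7234 ± 766 CPM per kb (SD, n = 3), and mt-Atp8 with 7177 ± 886, which did not differ beyond their spread. mt-Atp6 with 5647 ± 574, mt-Cytb with 3540 ± 466, mt-Co2 with 3236 ± 320, mt-Co3 with 3170 ± 256 and mt-Nd1 with 2992 ± 370 followed, and the last 4 lay within their spreads of each other. Below these were mt-Nd4 with 1740, mt-Nd2 with 1316 ± 189, mt-Nd4l with 1231 ± 177, mt-Nd5 with 726, mt-Nd6 with 531 and mt-Nd3 with 349 CPM per kb, so that 6 of the 7 complex I transcripts were the lowest of the 13.

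Some of these transcripts share bases. mt-Atp8 and mt-Atp6 lie on 1 transcript and overlap over 43 bases (chromosome MT, 7927 to 7969, GRCm38), which is 21.1% of the 204 bases of mt-Atp8, and reads there cannot be given to either gene. The shared stretch, shown because it limits the level of mt-Atp8 and with the start codon of mt-Atp6 in capitals, is
mt-Atp8 and mt-Atp6 overlap: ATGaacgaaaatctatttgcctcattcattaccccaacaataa
mt-Nd4l and mt-Nd4 overlap over 7 bases. mt-Nd6 is the only member on the other strand of the mitochondrial DNA. The labels call the libraries strand-specific while the kit named in the methods does not mark strand, so reads of mt-Nd6 and of transcripts opposite to it may not be told apart. Apart from naming the kit, the methods do not state whether RNA with a poly(A) tail was selected. Levels of mitochondrial-encoded transcripts beside each other and beside nuclear-encoded ones would depend on such a step.

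In IMQ + H2O against VAS + H2O all 13 mitochondrial-encoded members had log2 fold changes below 0, from -0.47 to -0.08 with a median of -0.24. Of the 13, 1 passed, or 7.69%, while 9.41% of all genes tested were lower. mt-Nd3, a small complex I subunit, had 120, 137 and 108 CPM in VAS + H2O, 86.8, 77.9 and 101 in IMQ + H2O, with 110, 86.4 and 77.2 in IMQ + XYF. VAS + H2O and IMQ + H2O did not overlap, and the level fell by 0.47 (SE 0.14, adjusted p = 0.0490, edgeR). The adjusted p lies close to the threshold: DESeq2 called 3 of the 13, and edgeR called 0 with RLE size factors, with all 9 libraries in 1 fit, or without VAS + H2O replicate 1 or 2 or IMQ + H2O replicate 1 or 2. mt-Nd3 also did not pass without VAS + H2O replicate 3. mt-Co3 had 2391, 2716 and 2348 CPM in VAS + H2O and 2102, 1931 and 1920 in IMQ + H2O and did not pass (log2 fold change -0.34, adjusted p = 0.0552, edgeR). mt-Nd5 had 1250, 1628 and 1092 CPM in VAS + H2O and 1000, 977 and 912 in IMQ + H2O (log2 fold change -0.47, adjusted p = 0.0736). The groups of mt-Co3 and mt-Nd5 did not overlap either, and the share of all genes tested without overlap was not computed. The most abundant transcript, mt-Co1, had 10329, 12529 and 10673 CPM in VAS + H2O and 10739, 10084 and 11043 in IMQ + H2O, with a log2 fold change of -0.09. The median of -0.24 was -0.11 without VAS + H2O replicate 2, -0.14 without IMQ + H2O replicate 1, and -0.17 to -0.31 without any other library. VAS + H2O replicate 2 had the highest CPM of its group for all 13 members and also the highest muscle, cartilage and fibroblast markers, and the part of those tissues was not tested.

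The mitochondrial rRNAs mt-Rnr1 and mt-Rnr2 summed to 209, 314 and 215 CPM in VAS + H2O, 214, 181 and 249 in IMQ + H2O, with 267, 209 and 159 in IMQ + XYF, and the groups overlapped. None of 9 mitochondrial rRNAs and tRNAs tested in IMQ + H2O against VAS + H2O passed, with 0 at an unadjusted p under 0.05 (edgeR).

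The summed level of the mitochondrial-encoded members was 31497, 38463 and 31885 CPM in VAS + H2O, 30505, 28951 and 32353 in IMQ + H2O, with 37000, 29282 and 25332 in IMQ + XYF, so the groups overlapped. That of the nuclear-encoded members was 5665, 5249 and 5746 CPM in VAS + H2O, 7547, 6778 and 7813 in IMQ + H2O, with 7581, 7718 and 7700 in IMQ + XYF, and each imiquimod library was above each Vaseline library. The ratio of the first sum to the second was 5.56, 7.33 and 5.55 in VAS + H2O, 4.04, 4.27 and 4.14 in IMQ + H2O, with 4.88, 3.79 and 3.29 in IMQ + XYF. Every imiquimod library had a lower ratio than every Vaseline library, with or without VAS + H2O replicate 2, while IMQ + XYF spanned the range of IMQ + H2O. On the log2 scale VAS + H2O had a mean ratio of 2.61 ± 0.23 (SD, n = 3), IMQ + H2O one of 2.05 ± 0.04 and IMQ + XYF one of 1.98 ± 0.29. The ratio is a score over the members, and no p-value was computed for it.

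**Figure D3:**
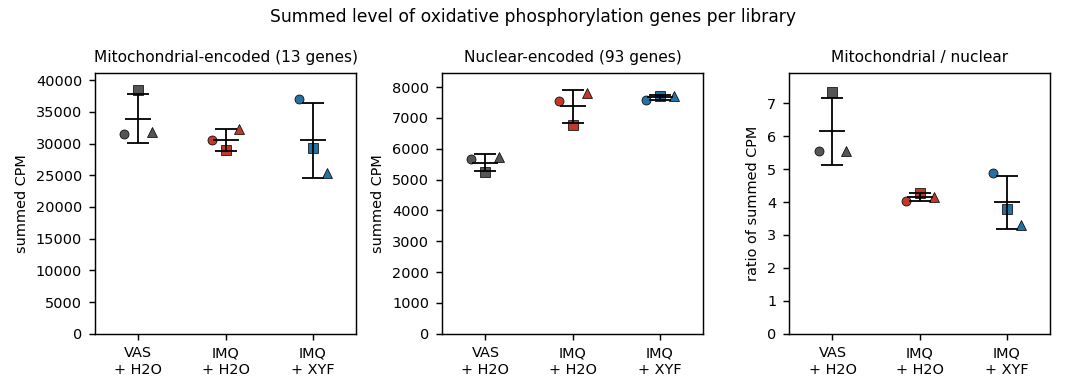
Summed CPM of the 13 mitochondrial-encoded members (left), of the 93 nuclear-encoded members (middle) and the ratio of these sums (right) in the 9 libraries, with circles, squares and triangles for replicates 1, 2 and 3 and bars for the mean and SD of 3 libraries. The nuclear-encoded sums of both imiquimod groups, from 6778 to 7813 CPM, lie above those of VAS + H2O, while the mitochondrial-encoded sums overlap, and the ratio is 5.55 or more in VAS + H2O and 4.88 or less in the other groups.

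The heart and muscle isoforms of complex IV were at few counts in epidermis. Cox6a2, a heart and muscle isoform, had 10, 132 and 5 counts in VAS + H2O, 0, 9 and 15 in IMQ + H2O, with 23, 52 and 7 in IMQ + XYF. Cox8b, of the same tissues, had 8, 54 and 3 counts, then 0, 0 and 0, then 0, 15 and 0. Cox7a1 had 7, 16 and 4 counts, then 0, 10 and 11, then 7, 18 and 4. All 3 were highest in VAS + H2O replicate 2 or IMQ + XYF replicate 2, the libraries with the highest summed muscle markers, 170 and 52.0 CPM, and the part of muscle tissue was not tested. Their ubiquitous partners were far more abundant, with Cox6a1 at 96.6 CPM or more, Cox8a at 58.3 or more and Cox7a2 at 48.4 or more in every library. Cox6b2, a testis isoform, had 0 to 27 counts per library and did not pass in any comparison. Cox4i2, an isoform known from lung and from low oxygen, had 1.71, 3.34 and 1.26 CPM in VAS + H2O and 1.07, 0.598 and 0.995 in IMQ + H2O, without overlap, and did not pass (log2 fold change -1.26 ± 0.44, adjusted p = 0.0835, edgeR). Ndufa4l2, a paralog of Ndufa4 known as a hypoxia-induced gene, had 16.1, 16.4 and 16.7 CPM in VAS + H2O, 40.0, 11.7 and 9.37 in IMQ + H2O, with 18.8, 18.3 and 6.69 in IMQ + XYF, and did not pass either, with a high value in IMQ + H2O replicate 1 alone.

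**Figure D4:**
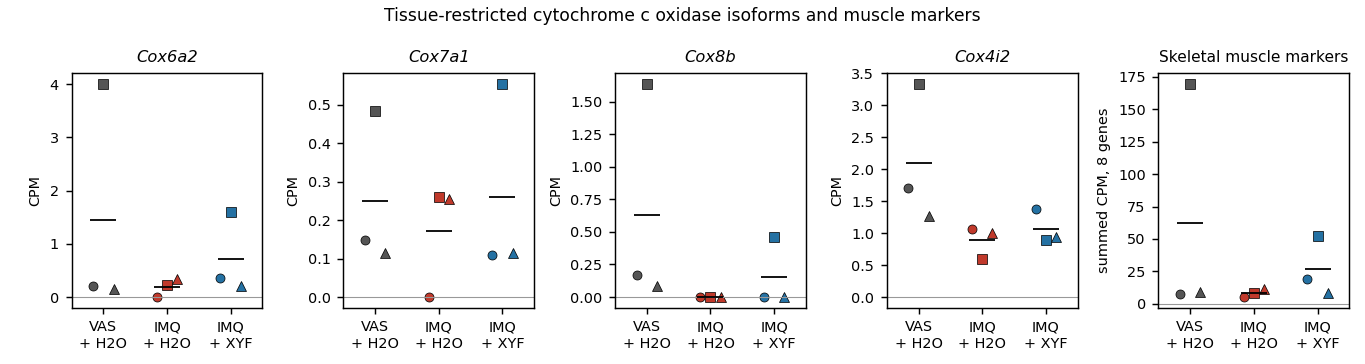
Level in CPM (vertical axis) of Cox6a2, Cox7a1, Cox8b and Cox4i2 and the summed CPM of 8 skeletal muscle markers in the 9 libraries, with circles, squares and triangles for replicates 1, 2 and 3 and a bar for the mean. Replicate 2 of VAS + H2O is the highest library for Cox6a2, Cox8b, Cox4i2 and the muscle markers, the last at 170 CPM.

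Levels of nuclear-encoded subunits within a complex were uneven. By CPM per kb in VAS + H2O the highest subunits were Uqcrh in complex III (221), Cox6b1 in complex IV (252) and Atp5b in complex V (284), and the lowest were Ndufb2 in complex I (4.49), Sdhc in complex II (26.3), Cox5a in complex IV (50.1) and Atp5g1 in complex V (15.0). In complex I the highest was Ndufv3 (161), and in complex II it was Sdha (47.5). Length was the median over a gene's coding transcripts. With the union of all exons in its place, the highest in complexes I, II and V and the lowest in complexes III and IV were other genes. Many respiratory subunits have processed pseudogenes with near-identical sequence, and how reads with several matches were counted is not given in the sources used here, so these levels are uncertain.

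Genes around oxidative phosphorylation were taken from lists. Cycs, the cytochrome c that carries electrons from complex III to complex IV, had 43.3, 33.7 and 38.2 CPM in VAS + H2O, 86.2, 76.5 and 111 in IMQ + H2O, with 99.7, 88.3 and 102 in IMQ + XYF, a log2 fold change of 1.24 ± 0.16 in IMQ + H2O (adjusted p = 0.00793, edgeR). Of 7 carriers and parts that the naming pattern misses, 5 rose, or 71.4% against 12.7% of all genes tested, and 0 fell in IMQ + H2O. Of the 7, 6 had an unadjusted p under 0.05 (edgeR), among them Cyc1, the cytochrome c1 of complex III (0.79 ± 0.15, adjusted p = 0.0171). Without VAS + H2O replicate 2, 1 of the 7 rose, and without VAS + H2O replicate 1, 3 did, with Cycs among those that passed in every such fit. Among 78 proteins of the mitochondrial ribosome, which translates the mitochondrial-encoded members, 33 rose in IMQ + H2O and 0 fell. The 33 are 42.3%, against 12.7% of all genes tested. Of the 78, 52 had an unadjusted p under 0.05 (edgeR), and all had a log2 fold change above 0 (median 0.38). Mrpl32 (1.16 ± 0.12, adjusted p = 0.00575, edgeR), Mrpl20 (0.75) and Mrpl12 (1.10) had the smallest adjusted p. The count of 33 was 7 without VAS + H2O replicate 2, 11 without VAS + H2O replicate 1, 17 without IMQ + H2O replicate 1 and 16 without IMQ + H2O replicate 3. The list for the cytosolic ribosome held genes whose symbols begin with Rpl, Rps or Rplp and a number, not all of which need be ribosome proteins. Among 87 of them tested 9 rose, or 10.3%, below the 12.7% of all genes tested, and 0 fell, with a median of 0.09. Rps19bp1, Rpl7l1 and Rpl38 had the smallest adjusted p. Without VAS + H2O replicate 1 or 2 none of the 87 rose. In IMQ + XYF against VAS + H2O 53 of the 78 rose, or 67.9% (34 without VAS + H2O replicate 2 and 32 without IMQ + XYF replicate 1 or 3). Of the 87, 13 rose, or 14.9%, below the 16.7% of all genes tested in that comparison. In IMQ + XYF against IMQ + H2O none of either list passed (edgeR), with 4 and 0 at an unadjusted p under 0.05. Mrpl32 was among these 4, with a log2 fold change of -0.73 ± 0.10 (adjusted p = 0.187).

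Of 17 genes of the TCA cycle and pyruvate dehydrogenase, 9 rose, or 52.9% against 12.7% of all genes tested, and all 17 had a log2 fold change above 0. Among the 9 were Mdh2 (0.69 ± 0.11, adjusted p = 0.0105, edgeR) and Idh3a (0.63 ± 0.10, adjusted p = 0.0114), both enzymes that make NADH. The count was 3 without VAS + H2O replicate 1 or 2 and 4 to 8 without any other library. Of 29 genes that replicate, transcribe or process the mitochondrial genome and its transcripts, 5 rose, or 17.2% against 12.7% of all genes tested, and 0 fell in IMQ + H2O (median 0.23), among them Lrpprc, which stabilizes mitochondrial mRNAs, with 49.4, 45.2 and 51.0 CPM in VAS + H2O and 74.1, 65.0 and 82.8 in IMQ + H2O (0.60 ± 0.11, adjusted p = 0.0146, edgeR). None of the 29 rose without VAS + H2O replicate 2. Tfam, which packages and transcribes mitochondrial DNA and was chosen after its values were seen, had a log2 fold change of 0.27 and did not pass.

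Among 10 regulators of mitochondrial biogenesis tested, 2 rose and 1 fell in IMQ + H2O, shares of 20% and 10% beside 12.7% and 9.41% of all genes tested. The 2 PGC-1 coactivators, which raise the transcription of respiratory genes, went opposite ways. Ppargc1b had 11.8, 10.3 and 10.8 CPM in VAS + H2O, 21.4, 22.4 and 28.2 in IMQ + H2O, with 20.7, 26.1 and 25.1 in IMQ + XYF (log2 fold change 1.12 ± 0.14 in IMQ + H2O, adjusted p = 0.00744, edgeR). Ppargc1a, at a lower count level, had 1.69, 2.43 and 2.21 CPM in VAS + H2O, 0.587, 0.416 and 0.949 in IMQ + H2O, with 0.801, 0.678 and 0.627 in IMQ + XYF (log2 fold change -1.69 ± 0.36, adjusted p = 0.0210, edgeR). Esrra, a nuclear receptor that PGC-1 proteins act on, rose by 0.33 ± 0.10 (adjusted p = 0.0499). Ppargc1b passed and Esrra did not pass whichever library was left out, and Ppargc1a no longer passed without VAS + H2O replicate 2 or 3 or IMQ + H2O replicate 1.

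**Figure D5:**
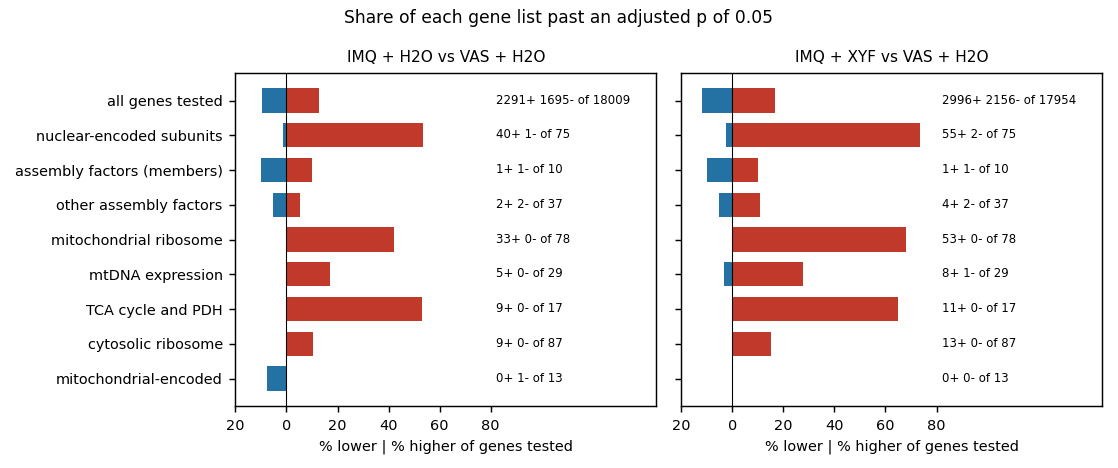
Share of the genes tested in each list that was higher (red, right of 0) or lower (blue, left of 0) at an adjusted p of at most 0.05, in percent, for the 2 comparisons with VAS + H2O, with the counts printed beside the bars. Among the lists drawn, the longest red bars are those of the nuclear-encoded subunits (40 and 55 of 75), the TCA cycle genes (9 and 11 of 17) and the mitochondrial ribosome (33 and 53 of 78), above the 12.7% and 16.7% of all genes tested. The list of carriers, 5 of 7 in both comparisons, is not drawn.

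In IMQ + XYF against VAS + H2O, which shares the control libraries with the first comparison, 56 of 89 nuclear-encoded members tested were higher and 3 were lower, against 16.7% and 12.0% of all 17954 genes tested, and the median log2 fold change was 0.43. Without VAS + H2O replicate 2, 46 were higher. Past a log2 fold change of 1 there was 1 member, against 7.64% of all genes. By complex, 25 of 37 subunits of complex I, 3 of 4 of complex II, 7 of 8 of complex III, 8 of 11 of complex IV and 12 of 15 of complex V were higher, and without VAS + H2O replicate 2 the counts were 18, 3, 6, 8 and 10. Complex I had 15 without IMQ + XYF replicate 3. Those with the smallest adjusted p, isoform partners aside, were Atp5g3 (log2 fold change 0.97 ± 0.06, adjusted p = 0.000374, edgeR), Uqcrq (0.89 ± 0.07, adjusted p = 0.000733), Sdhd (0.81 ± 0.07), Atp5g1 (0.96 ± 0.09), Uqcr10 (0.84 ± 0.08) and Atp5c1, the central stalk of complex V (0.54 ± 0.06). The 3 that were lower were Cox7a2l, Atp5sl and Ndufv3, and without IMQ + XYF replicate 1 there was 1. None of the 13 mitochondrial-encoded members passed (edgeR and DESeq2 alike), and 1 had an unadjusted p under 0.05, against 7418 of all 17954 genes tested. All 13 had a log2 fold change below 0, with a median of -0.22. That median was -0.11 without IMQ + XYF replicate 3, -0.14 without VAS + H2O replicate 2 and -0.35 without IMQ + XYF replicate 1. Without IMQ + XYF replicate 1, 1 mitochondrial-encoded member passed.

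The third comparison asked what XYF adds to imiquimod. Between IMQ + XYF and IMQ + H2O 0 of 89 nuclear-encoded and 0 of 13 mitochondrial-encoded members passed in either direction by edgeR, and 0 by DESeq2. Over all 17793 genes tested, 0.0281% were higher and 0% were lower, and with the threshold of 1 on the log2 scale it was again 0.0281%. At an unadjusted p under 0.05 there were 2 nuclear-encoded members and 0 mitochondrial-encoded members, against 966 of all 17793 genes tested. The median log2 fold change was 0.07 over the nuclear-encoded members, with a median standard error of 0.10, and 0.03 over the mitochondrial-encoded members, with a median standard error of 0.15. The latter was -0.14 without IMQ + XYF replicate 1 and -0.02 without IMQ + H2O replicate 2, so its sign rested on single libraries. Cartilage markers were higher in IMQ + XYF (2 of 6 passed, median log2 fold change 2.04). Skeletal muscle (6 tested, median 1.65), dermal fibroblast (6 tested, median 1.45) and adipocyte markers (4 tested, median 1.28) had log2 fold changes above 0 in every gene tested and none passed, with 2, 5 and 1 at an unadjusted p under 0.05. The part of these tissues was not tested.

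The members with the smallest unadjusted p in this comparison did not pass. Ndufaf3, an assembly factor of complex I, had 5.54, 5.79 and 5.82 CPM in VAS + H2O, 3.49, 4.55 and 3.84 in IMQ + H2O, with 5.28, 6.57 and 5.67 in IMQ + XYF. IMQ + H2O was the lowest group without overlap, while the other groups overlapped. Its log2 fold change was 0.56 ± 0.17 in IMQ + XYF against IMQ + H2O (adjusted p = 0.655, edgeR) and -0.54 ± 0.17 in IMQ + H2O against VAS + H2O (adjusted p = 0.0592), and these share the IMQ + H2O libraries. Ndufaf4, another assembly factor of complex I, had 9.60, 7.62 and 11.7 CPM in IMQ + H2O and 13.6, 27.6 and 12.3 in IMQ + XYF (log2 fold change 0.89 ± 0.34, adjusted p = 0.818). Uqcrc1 had 200, 176 and 202 CPM in IMQ + H2O and 197, 227 and 233 in IMQ + XYF (log2 fold change 0.19 ± 0.09, adjusted p = 0.979). Atp5b and Ndufa4, which were higher with imiquimod, differed by 0.09 ± 0.08 and 0.07 ± 0.09 between the imiquimod groups, which is within their standard errors or close to them.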

How the data were processed

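RNA sequencing counts of 9 epidermal libraries were analysed, 3 per group, grouped by their labels. Per the methods, TruSeq RNA libraries were sequenced and aligned to GRCm38 using Ensembl 90 gene models, and the submitters' processing notes name FastQC, STAR 2.5, Cuffnorm and DESeq 1.22.1. The authors deposited raw counts per gene as whole numbers without normalization, and the counting tool and its strand setting are not given in the sources used here. The labels call the libraries strand-specific, which the named kit is not.

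For each comparison, its 6 libraries alone were fitted with edgeR 4.0.16 in R 4.3.3 (TMM, filterByExpr, glmQLFit, glmQLFTest), with Benjamini-Hochberg adjustment over all genes tested and a threshold of 0.05. The fit was tested on simulated data. Standard errors were derived from the test statistic. The mean CPM of a gene was divided by the median length of its coding transcripts in GENCODE M21 for levels per kb. Cox6a2 was tested in both comparisons with IMQ + XYF only, and Cox7a1 and Cox8b in none, because of the filter on low counts.

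The members and lists were chosen with earlier results of these data known. Members named one by one are the mitochondrial-encoded genes, the tissue-restricted isoforms with their partners, up to 6 others per comparison and direction with the smallest adjusted p and no overlap of groups (where fewer than 3 passed, the 3 with the smallest unadjusted p), the highest and lowest subunit per kb in each complex, and up to 3 genes per list. Sdhb, Atp5g2, Ndufaf2, Mrpl32 in the third comparison and the printed promoters were chosen after their values were seen. Alternatives were RLE size factors, DESeq2 1.42.0, other count filters, 1 fit of all 9 libraries, the replicate number as a block, library sizes without mitochondrial-encoded genes, and each library left out in turn.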

Additional observations from a re-analysis of the deposited data

How the results depend on the processing

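In IMQ + H2O against VAS + H2O the count of 41 nuclear-encoded members that were higher was 10 to 43 when 1 library was left out and 39 with the replicate block. The 2 that were lower became 4 with DESeq2 or with 1 fit of all 9 libraries, 1 without the low-count filter, with the replicate block or with mitochondrial-encoded genes out of the library sizes, and 1 to 2 when 1 library was left out. The 1 mitochondrial-encoded call became 3 with DESeq2 and 0 with RLE size factors, without the low-count filter, with all 9 libraries, with the replicate block or with mitochondrial-encoded genes out of the library sizes, and 0 to 1 when 1 library was left out. The median of the mitochondrial-encoded members was -0.31 to -0.11 when 1 library was left out. In IMQ + XYF against VAS + H2O leaving out 1 library gave 42 to 57 nuclear-encoded members higher, 1 to 3 lower, and 0 to 1 mitochondrial-encoded, and the replicate block gave 50 higher. With the threshold of 1 on the log2 scale, 1 nuclear-encoded member was higher and 0 were lower in each comparison with VAS + H2O, and 0 mitochondrial-encoded members passed. Of the values of named genes that passed, members and others, 1169 kept their direction and side of the threshold under the alternatives, 170 no longer passed and 0 changed direction. Of 1087 values of named members that had not passed, 14 passed under an alternative and 64 had the other sign, 44 of these in IMQ + XYF against IMQ + H2O. The counts by complex and list without each library were chosen after seeing the data, and no share over all genes tested was computed for those fits. Libraries with the same replicate number did not visibly deviate together (correlations of -0.13 to 0.11, against -0.22 to 0.17 for other numbers). Pairing by the number was not seen, but 9 such pairs cannot exclude it. Depth limits the isoforms at a few counts per library.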
